A study of Homo sapiens with 4 samples.

Results

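The melanocyte lineage and pigment genes examined here are MITF, SOX10, PMEL, TYR, TYRP1, DCT, MLANA, SLC45A2, OCA2 and GPR143. They were taken by gene symbol, and all 10 were found among the 25268 symbols of the table. The RNA came from SK-MEL-28, an established human melanoma cell line, stably transduced by lentivirus with either the empty pTRIPZ vector (vector cells) or a MYC gene behind a Tet-inducible promoter (MYC-inducible cells). Both lines were selected with geneticin and kept in G418, and each was sequenced without doxycycline (Dox) and after 54 h of Dox, which the methods give as 0.5 μg/ml. Each of the 4 conditions has 1 library, whether a line is a clone or a pool is not given in the sources used here, and the vector cells with Dox are the control for Dox itself. Differences between conditions thus rest on single libraries, and p-values are not given.

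Melanocytes make melanin inside melanosomes, organelles related to lysosomes. The transcription factor SOX10 keeps the neural crest identity of these cells and activates MITF, the basic helix-loop-helix factor that is regarded as the master regulator of the lineage. MITF binds the M-box, an E-box extended at its 5′ end, in front of the pigment genes. These encode the melanin enzymes (TYR, TYRP1 and DCT), the fibre protein of the melanosome and the protein that helps it mature (PMEL and MLANA), a melanosomal receptor (GPR143) and melanosomal transporters (SLC45A2 and OCA2). In melanoma, high levels of these genes mark the differentiated or melanocytic state.

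RefSeq promoter windows, 250 bases before to 50 bases after a transcription start on GRCh38.p14, were at hand for 7 of the 10 genes, in 10 windows. The windows below are shown because they hold the M-box letters TCATGTG (or CACATGA on the other strand) or, for MITF, the cyclic AMP response element TGACGTCA. Capitals mark TCATGTG, its 6-base core CATGTG where it stands alone, and TGACGT. Each window is written 5′ to 3′ in the direction of its gene. For DCT and MITF, which have several starts, the most downstream window is given, and that of MITF is the one from which the melanocyte form is transcribed.
TYR (chr11:89177625-89177924, plus strand): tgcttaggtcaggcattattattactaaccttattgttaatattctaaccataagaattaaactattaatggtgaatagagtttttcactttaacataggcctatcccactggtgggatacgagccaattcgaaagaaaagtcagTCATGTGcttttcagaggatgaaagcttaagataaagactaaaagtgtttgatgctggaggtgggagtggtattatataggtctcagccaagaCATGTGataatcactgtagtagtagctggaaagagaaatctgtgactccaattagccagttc
TYRP1 (chr9:12693135-12693434, plus strand): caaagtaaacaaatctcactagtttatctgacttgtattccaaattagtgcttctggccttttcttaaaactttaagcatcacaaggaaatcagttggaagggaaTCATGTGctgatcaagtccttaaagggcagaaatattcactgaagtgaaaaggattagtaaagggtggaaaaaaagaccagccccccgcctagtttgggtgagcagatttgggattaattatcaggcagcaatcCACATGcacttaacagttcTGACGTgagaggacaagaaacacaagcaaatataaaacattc
DCT (chr13:94479633-94479932, minus strand): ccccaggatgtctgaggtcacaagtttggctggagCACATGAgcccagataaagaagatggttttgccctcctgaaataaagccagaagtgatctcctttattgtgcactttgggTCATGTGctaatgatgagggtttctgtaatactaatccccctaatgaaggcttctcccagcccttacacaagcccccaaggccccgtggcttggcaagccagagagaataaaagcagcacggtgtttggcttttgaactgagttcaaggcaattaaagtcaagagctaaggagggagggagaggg
GPR143 (chrX:9765798-9766097, minus strand): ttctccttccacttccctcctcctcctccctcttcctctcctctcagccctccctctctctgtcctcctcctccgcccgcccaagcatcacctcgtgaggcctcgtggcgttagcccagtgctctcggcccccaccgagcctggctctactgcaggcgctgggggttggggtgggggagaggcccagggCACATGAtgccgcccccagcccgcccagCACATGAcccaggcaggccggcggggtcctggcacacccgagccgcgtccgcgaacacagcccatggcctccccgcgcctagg
MITF (chr3:69936342-69936641, plus strand): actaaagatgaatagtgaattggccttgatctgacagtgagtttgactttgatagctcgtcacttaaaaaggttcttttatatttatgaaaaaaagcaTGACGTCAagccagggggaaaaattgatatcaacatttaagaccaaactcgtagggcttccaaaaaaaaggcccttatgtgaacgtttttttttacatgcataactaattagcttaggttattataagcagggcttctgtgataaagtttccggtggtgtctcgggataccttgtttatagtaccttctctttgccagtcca

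The M-box letters were found in 4 of the 10 windows, those of 4 of the 7 genes. Counted by gene, 3.59% of all 27305 genes with a window had them. With the start base counted as 0, TCATGTG began at -105 in TYR, at -145 in TYRP1, at -135 and, on the other strand, -215 in DCT, and at -61 and -33 on the other strand in GPR143. The core alone was also present at -12 in TYR, at -11 in TYRP1 on the other strand and at -153 in OCA2. Over both strands, TCATGTG occurred in 2.92% of all 35116 windows and its core CATGTG, which every TCATGTG contains, in 11.1%. TGACGT began at -152 in the MITF window, where both strands together spell the full element, and at 8 in TYRP1, and occurred in 7.98% of windows. The E-box CACGTG, to which MYC and MAX bind, was in 0 of the 10 windows of these genes and in 7.26% of all windows. A match is a description of the letters and not a bound site.

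**Figure D1:**
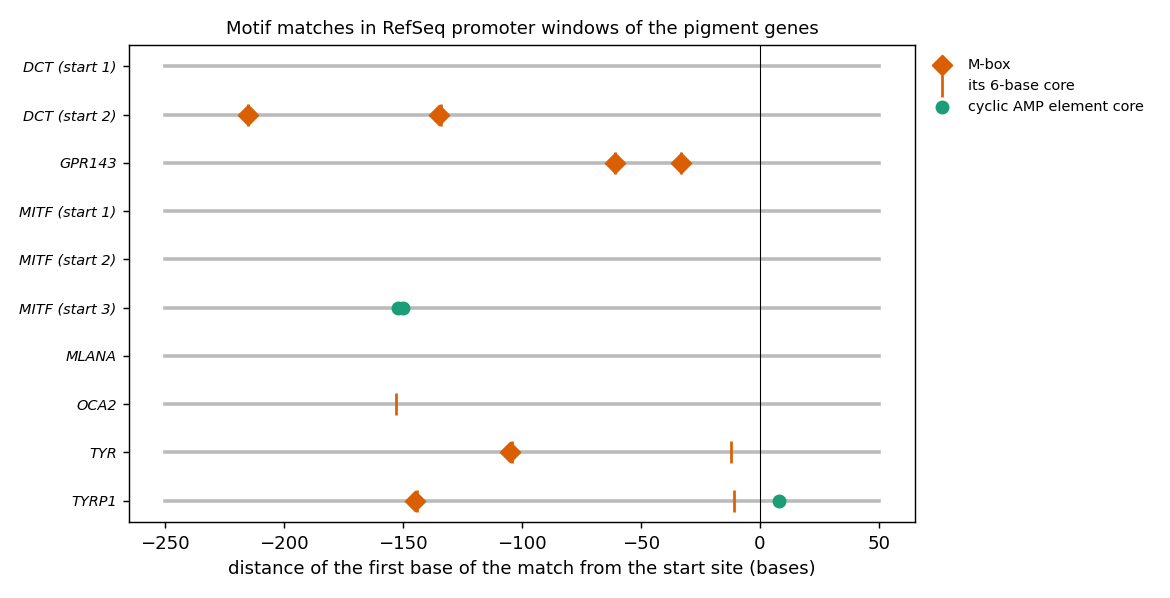
Positions of motif matches in the 10 RefSeq promoter windows of 7 melanocyte lineage and pigment genes, in bases from the transcription start (0). Diamonds are the M-box, ticks its 6-base core and circles the core of the cyclic AMP response element; the M-box stands in TYR, TYRP1, GPR143 and the downstream window of DCT, between -215 and -33.

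Levels are in FPKM, the authors' measure of fragments scaled to transcript length and to library size. Values of very low genes put the depth of the 4 libraries at approximately 35.4 to 42.7, in units of 1000000 fragments. MYC had 58.3 and 54.8 FPKM in the vector cells without and with Dox and 76.5 and 87.1 FPKM in the MYC-inducible cells, and gene-level values do not separate the transgene from the endogenous gene. Of 10 textbook MYC targets, 9 rose by 1.5-fold or more in the MYC-inducible cells given Dox and 0 in the vector cells. ODC1, NOP16 and NOLC1 changed the most in the MYC-inducible cells. Among all 11147 genes tested, 5.90% rose in the MYC-inducible cells and 0.709% in the vector cells. For the vector cells, 0 of 10 is near the share of all genes. The MYC targets were listed with earlier results of these data known, so their rise is not an independent check of induction. Most markers of other cell types were near 0, with the 4 endothelial genes (PECAM1, CDH5, VWF and KDR) and the leukocyte genes PTPRC, CD3E and CD14 below 1 FPKM in every library, as were 6 of 7 fibroblast genes (all but LUM, at 26.0 to 31.5 FPKM) and 5 of 6 keratinocyte genes (all but KRT10, at 13.8 to 18.0 FPKM). COL3A1, KRT5 and KRT1 were listed at 0 throughout, and the summed levels were 26.1 to 31.6 FPKM for the fibroblast and 14.1 to 18.4 FPKM for the keratinocyte list, lowest with Dox in the MYC-inducible cells.

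With Dox in the MYC-inducible cells, TYRP1, PMEL, MLANA and TYR fell at least 1.5-fold, MITF, SOX10, DCT, OCA2 and GPR143 were lower by less than that, and SLC45A2 was level. In the vector cells none of the 10 changed by 1.5-fold. Change is given as the difference of log2(FPKM + 0.1), and all 10 genes passed the filter of a mean of at least 1 FPKM that left 11147 genes. In the MYC-inducible cells 4 of the 10 fell, where 8.85% of all genes did, and 0 rose, where 5.90% did. In the vector cells 0 fell and 0 rose, with 0.440% and 0.709% among all genes. For 10 genes, each of these counts of 0 is near the share of all genes. The median log2 change over these 10 was -0.42 in the MYC-inducible cells and -0.05 in the vector cells, against -0.03 and 0.01 over all genes tested. The library of MYC-inducible cells with Dox was the lowest of the 4 libraries for 8 of the 10 genes, the exceptions being DCT and SLC45A2, and for 42.9% of all genes. In bulk RNA, fewer cells that express a gene and less of its RNA per cell cannot be told apart.

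**Figure D2:**
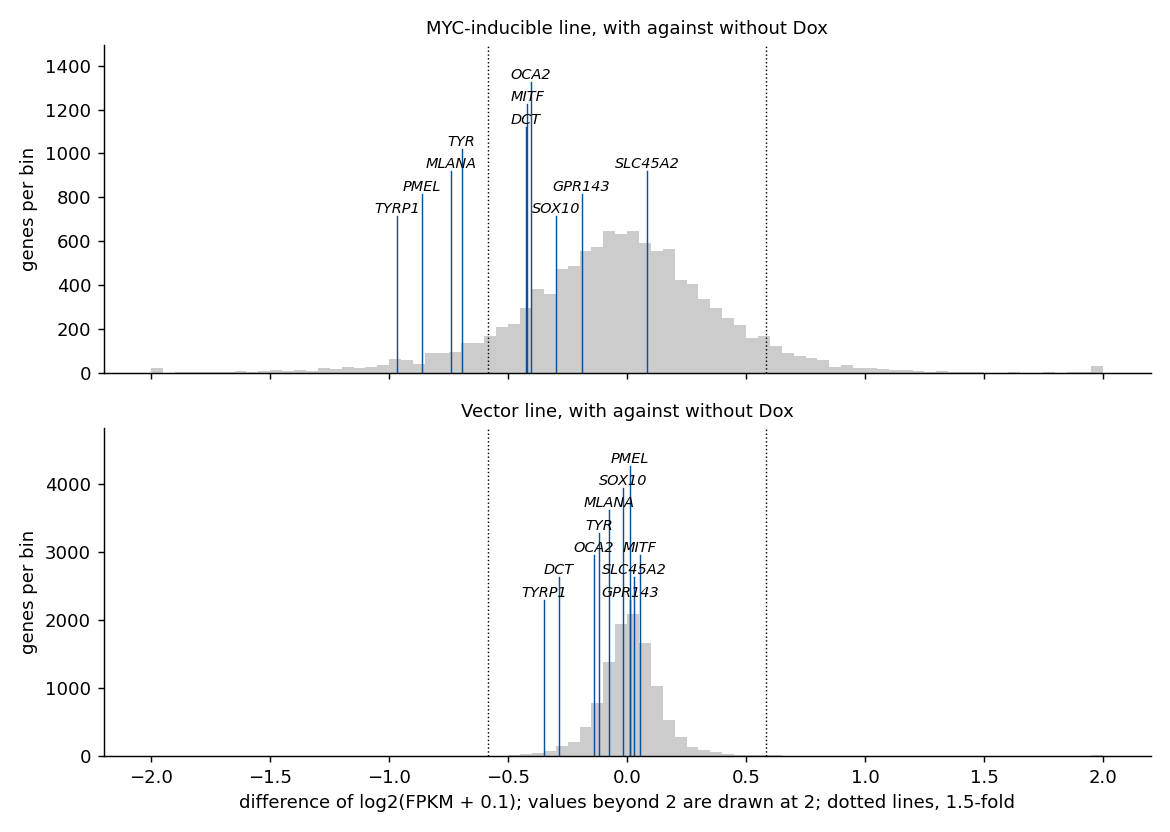
Log2 change with Dox of the 10 genes (blue lines) over the distribution of all 11147 genes tested (grey), in the MYC-inducible cells (top) and the vector cells (bottom). In the top panel 4 of the 10 lie beyond the left dotted line at 1.5-fold; in the bottom panel none does, and TYRP1 and DCT are the furthest to the left.

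The lineage factors were lower by smaller amounts than several of the pigment genes. SOX10 (GRCh37 chromosome 22, 38366693 to 38383429, minus strand) had 197 FPKM in the vector cells without Dox, 194 FPKM with Dox, 191 FPKM in the MYC-inducible cells without Dox and 156 FPKM with Dox. Its first 3 libraries lay within a factor of 1.03 of each other and the MYC-inducible library with Dox stood apart below them, at a log2 change of -0.30. MITF (chromosome 3, 69788607 to 70017487, plus strand) had 82.6, 85.6, 90.0 and 67.2 FPKM in the same order. The MYC-inducible library with Dox was 18.6% below the lowest of the other 3, and the log2 change was -0.42, with 0.05 in the vector cells. Both factors stayed short of 1.5-fold, and 15.0% of all genes had a lower change than MITF and 23.2% than SOX10. POLR2F, a shared subunit of the RNA polymerases, overlaps SOX10 on the opposite strand and went the other way, from 75.9 to 107 FPKM. The MITF value sums the forms of the gene, so the melanocyte form was not seen on its own.

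Among the melanin enzymes, TYR fell below its level in the other libraries, while TYRP1 and DCT varied between the untreated lines as well. TYR, the copper enzyme that oxidises tyrosine in the first step of melanin synthesis (chromosome 11, 88911043 to 89028927, plus strand), had 109 and 100.2 FPKM in the vector cells without and with Dox and 111 and 68.5 FPKM in the MYC-inducible cells. Its log2 change was -0.70 in the MYC-inducible cells and -0.12 in the vector cells, and 31.6% separated the MYC-inducible library with Dox from the next lowest. TYR shares near-identical sequence with a pseudogene copy, TYRL, which has no row of its own in the table. How the counting divided such reads is not given in the sources used here. TYRP1, which stabilises TYR in the melanosome (chromosome 9, 12685439 to 12710285, plus strand), was the lowest of the 10 genes, with 20.2 and 15.8 FPKM in the vector cells and 27.9 and 14.2 FPKM in the MYC-inducible cells. The change in the MYC-inducible cells, -0.97, was the furthest of the 10, but the untreated MYC-inducible library was itself the highest, 0.47 log2 units above the untreated vector library. Set against the vector cells with Dox, TYRP1 in the MYC-inducible cells with Dox differed by -0.15. DCT, the dopachrome tautomerase that acts on a later intermediate (chromosome 13, 95089065 to 95131936, minus strand), had 75.6 and 61.9 FPKM in the vector cells and 87.5 and 65.1 FPKM in the MYC-inducible cells. It was lower with Dox in both lines, by log2 changes of -0.29 and -0.43, and with Dox the lines differed by 0.07. In the vector cells 1.37% of all genes had a lower change than TYRP1 and 2.22% than DCT.

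The abundant structural genes PMEL and MLANA fell against each of the other 3 libraries. PMEL, whose product forms the amyloid fibres on which melanin is laid down (chromosome 12, 56347889 to 56367101, minus strand), had 6176 FPKM in the vector cells without Dox, 6227 FPKM with Dox and 6178 FPKM in the MYC-inducible cells without Dox. These 3 libraries lay within a factor of 1.01, and PMEL ranked 5 among all symbols in each. With Dox in the MYC-inducible cells it had 3394 FPKM and ranked 35, which is a log2 change of -0.86. MLANA (Melan-A or MART-1, a melanosomal protein needed for PMEL to mature; chromosome 9, 5890889 to 5910606, plus strand) had 1252 and 1187 FPKM in the vector cells and 1086 and 650 FPKM in the MYC-inducible cells. Its log2 change was -0.74 with Dox in the MYC-inducible cells, and the untreated MYC-inducible library was itself below the untreated vector library, by a log2 difference of -0.20. PMEL overlaps CDK2 over 6009 bases on the opposite strand. CDK2, which had 221 and 139 FPKM in the MYC-inducible cells without and with Dox, fell as well, and whether the values use the strand of the reads is not given in the sources used here. GPR143, the melanosomal receptor whose loss causes ocular albinism (chromosome X, 9693386 to 9754337, minus strand), had 122, 124, 121 and 106 FPKM in the 4 libraries. It was level in the first 3 and 12.4% below their lowest in the MYC-inducible cells with Dox, at a log2 change of -0.19.

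The 2 melanosomal transporters did not change alike. SLC45A2, mutated in an oculocutaneous albinism and thought to keep the melanosome from becoming acidic (chromosome 5, 33944728 to 33984798, minus strand), had 110.3 and 113 FPKM in the vector cells and 103 and 109 FPKM in the MYC-inducible cells. Dox changed it by 0.09 (log2) in the MYC-inducible cells and by 0.03 in the vector cells, and with Dox the lines differed by -0.04. OCA2, a melanosomal anion channel protein (chromosome 15, 28000021 to 28344461, minus strand), had 34.4 and 31.2 FPKM in the vector cells and 38.0 and 28.7 FPKM in the MYC-inducible cells. It was lower with Dox in both lines, by log2 changes of -0.14 and -0.40, and the MYC-inducible library with Dox was 8.09% below the vector library with Dox.

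The choice of reference therefore mattered for part of the genes. With Dox in both lines, 2 of the 10 genes were at least 1.5-fold lower in the MYC-inducible cells. These were PMEL at -0.88 and MLANA at -0.87, and 0 were higher. The shares of all genes were 8.62% and 6.50%, and the 0 that were higher is near its share. TYR followed at -0.55, MITF at -0.35, SOX10 at -0.32 and GPR143 at -0.22, while TYRP1, OCA2, SLC45A2 and DCT lay between -0.15 and 0.07. Without Dox, 0 of the 10 genes differed by 1.5-fold between the lines in either direction. This is near the shares of all genes, 0.592% higher and 0.287% lower in the MYC-inducible cells. The untreated lines were closest for PMEL, at a log2 difference below 0.01, and furthest apart for TYRP1. The approximate counting error of the log2 change in the MYC-inducible cells ran from 0.0033 for PMEL to 0.043 for TYRP1, whose lowest value rested on approximately 1636 fragments; it covers the sampling of fragments and not differences between cultures.

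Ratios of genes within a library do not depend on how the library was scaled. PMEL stood at 56.0 and 55.3 times SLC45A2 in the vector cells without and with Dox, at 59.9 times in the MYC-inducible cells without Dox and at 31.0 times with Dox. TYR stood at 0.985 and 0.889 times SLC45A2 in the vector cells and at 1.08 and 0.626 times in the MYC-inducible cells. Both pigment genes thus fell relative to a pigment gene that was level. SLC45A2 alone of the 10 genes was not lower with Dox in the MYC-inducible cells. The direction of these ratios therefore follows from the FPKM already given and adds no separate evidence. Relative to MITF, PMEL stood at 74.8 and 72.7 times in the vector cells without and with Dox. TYR stood at 1.32 and 1.17 times MITF there, so this ratio was lower with Dox in the vector cells too. In the MYC-inducible cells PMEL went from 68.7 to 50.5 times and TYR from 1.23 to 1.02 times, so both changed further than MITF in that line. The ratio of DCT to MITF was 0.972 without and 0.969 with Dox in that line, and it was 0.915 and 0.723 in the vector cells. PMEL to MLANA was between 4.93 and 5.69 in all 4 libraries, and MITF to SOX10 between 0.419 and 0.471.

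The order of the genes by FPKM was nearly fixed. In every library PMEL was the highest, followed by MLANA and SOX10, and the order MITF, DCT, OCA2 and TYRP1 closed the list. The places between, held by GPR143, SLC45A2 and TYR, changed hands. GPR143 was ahead in the first 3 libraries and SLC45A2 in the MYC-inducible cells with Dox. These neighbours lay between 68.5 and 124 FPKM, and with 1 library a condition their order has no spread to set it against. The 10 genes together took 1.16%, 1.14% and 1.16% of all FPKM in the vector cells without Dox, the vector cells with Dox and the MYC-inducible cells without Dox, and 0.651% in the MYC-inducible cells with Dox. PMEL made up 72.8% to 76.9% of that sum. Without PMEL and MLANA the sum was 751, 725, 770 and 615 FPKM in the same order.

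Of 13 other lineage factors and receptors, 11 passed the filter. In the MYC-inducible cells 10 of these were lower with Dox, where 53.1% of all genes tested were, 1 fell at least 1.5-fold, which as a share (9.09%) is close to the 8.85% of all genes, and 0 rose. EDNRB, the endothelin receptor that melanocytes need to develop, fell from 17.1 to 10.5 FPKM in the MYC-inducible cells and had 16.7 and 13.0 FPKM in the vector cells without and with Dox. TFAP2A, a factor that works beside MITF at pigment genes, went from 23.4 to 15.6 FPKM, a log2 change of -0.58 that just missed 1.5-fold, and ETV1 changed by -0.45. The median of the list was -0.38 in the MYC-inducible cells and -0.08 in the vector cells, where 10 of the 11 were also lower and 45.6% of all genes were. SOX9 and KIT were below 1 FPKM in every library. Of the factors of the MITF family, TFE3 had 7.06 and 5.55 FPKM in the MYC-inducible cells without and with Dox, and TFEB and TFEC were below 1 FPKM throughout.

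The other melanosome genes are given by their role. Of 8 further melanosome membrane proteins, 8 were lower with Dox in the MYC-inducible cells and 3 fell: CD63, the tetraspanin that sorts PMEL, from 4454 to 2095 FPKM, SLC24A5, a melanosomal cation exchanger, from 46.0 to 23.5 FPKM, and GPNMB, a relative of PMEL, from 264 to 173 FPKM. Their log2 changes in the vector cells were -0.07, 0.03 and -0.09. Of the 4 proteins that carry mature melanosomes, 2 fell: MLPH, the adaptor melanophilin, from 105 to 59.3 FPKM and SYTL2, a RAB27A effector, from 28.4 to 16.1 FPKM. RAB27A, the GTPase on the melanosome, changed by -0.46 and MYO5A, the motor, by -0.18. The 22 genes of melanosome biogenesis (the BLOC-1, HPS and AP-3 proteins and their partners) had a median log2 change of -0.14 and 0 that fell, and the ranges of these lists overlap. BLOC1S5 alone rose, from 1.92 to 4.75 FPKM, and it had 3.01 and 3.89 FPKM in the vector cells, so the untreated MYC-inducible library was the lowest of the 4. LYST and HPS5 had the largest decreases of that list, -0.54 and -0.46. These lists and the 10 pigment genes together hold 56 tested genes. Of these, 48 (85.7%) were lower, 10 (17.9%) fell and 1 (1.79%) rose in the MYC-inducible cells. Among all genes there, 53.1% were lower, 8.85% fell and 5.90% rose. With Dox in both lines, 42 of the 56 (75.0%) were lower in the MYC-inducible cells, where 50.7% of all genes were. At 1.5-fold, 6 (10.7%) were lower in that comparison, close to the 8.62% of all genes, and 0 were higher, where 6.50% were. In the vector cells 0 fell and 0 rose, which is near the 0.440% and 0.709% of all genes.

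Further MITF targets and markers of the melanocytic and the dedifferentiated state were read against the same shares of all genes. In the MYC-inducible cells these were 53.1% lower, 8.85% that fell and 5.90% that rose. Of 15 tested MITF targets listed apart from the pigment and melanosome genes, 11 were lower with Dox in the MYC-inducible cells. Of the 15, 6 fell and 0 rose, with a median of -0.27. CDK2, described above, is among the 6. BCL2A1, a survival protein of the BCL2 family, fell from 428 to 230 FPKM, TRPM1, a channel gene of melanocytes, from 53.3 to 29.7 FPKM and CEACAM1, an adhesion molecule, from 78.3 to 47.6 FPKM. CEACAM1 was also lower with Dox in the vector cells, by a log2 change of -0.30. With Dox in both lines, 3 of the 15 were at least 1.5-fold lower in the MYC-inducible cells and 0 higher. The median log2 difference of these 15 was then -0.21. Of 8 tested neural crest and melanoma markers, 4 fell and 8 were lower, among them S100B from 662 to 252 FPKM, the proteoglycan gene CSPG4 from 24.6 to 10.3 FPKM and the adhesion molecule gene MCAM from 190 to 83.2 FPKM. Between the lines with Dox, 5 of these 8 markers were at least 1.5-fold lower in the MYC-inducible cells and 0 higher. Genes of the dedifferentiated state tend in melanoma to be high where MITF is low. Of 15 such genes 8 passed the filter. With Dox in the MYC-inducible cells 6 of them were lower and 4 fell, with NGFR going from 1.65 to 0.405 FPKM, CTGF from 21.6 to 8.26 FPKM and TNC from 70.5 to 31.2 FPKM. There 0 of the 8 rose, which is near the 5.90% of all genes, and TEAD4 was higher by 0.51 (log2), short of 1.5-fold. AXL, EGFR, WNT5A and ZEB1 were below 1 FPKM in every library. With Dox in both lines, 5 of these 8 genes were at least 1.5-fold lower in the MYC-inducible cells, where 8.62% of all genes were. The median log2 difference was -1.08. Only 1 was at least 1.5-fold higher, TEAD4, at 27.5 against 18.2 FPKM, where 6.50% of all genes were. In the vector cells 0 genes fell in any of these 3 lists, and 1 rose, CYR61 of the dedifferentiated list, from 1.29 to 2.14 FPKM. Among all genes 0.440% fell and 0.709% rose in the vector cells, so 0 that fell is near that share.

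Genes with the M-box letters in a promoter window were looked at across the table, a choice made after the windows of the pigment genes had been seen. Of 218 tested genes with TCATGTG in a window, TYR, TYRP1, DCT and GPR143 included, 15.1% fell with Dox in the MYC-inducible cells and the median log2 change was -0.13. Over the 8381 tested genes that have a window, 8.17% fell and the median was -0.03. With the shorter core CATGTG, 9.69% of 795 genes fell, and with the MYC E-box CACGTG, 6.04% of 1109 genes fell and 9.56% rose, where 5.51% of the genes with a window did. For TGACGT, 6.39% of 1251 genes fell. Among the pigment genes themselves, the 4 with TCATGTG changed by -0.97, -0.70, -0.43 and -0.19, and MLANA, with none of these letters in its window, by -0.74.

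The genes closest to MITF and PMEL in profile were found over the 4 libraries, by the distance between log2 values centred on each gene's own mean, among 7473 other genes that averaged 5 FPKM or more. SCAMP5 and CPVL lay closest to MITF, at distances of 0.0067 and 0.012, and they changed by -0.42 and -0.41 in the MYC-inducible cells. GOLGA7B, IFI27L2 and MYEF2 lay closest to PMEL, at 0.020, 0.023 and 0.034, with changes of -0.89, -0.83 and -0.83. With 4 libraries many genes can share a profile.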

How the data were processed

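RNA-Seq was performed by the submitters on 4 libraries of SK-MEL-28 cells, 1 per condition, using HiSeq4000. The deposited values are FPKM per gene symbol, and the submitters' processing notes name TopHat2 2.0.14 and Cufflinks with hg19 (GRCh37). The annotation and the use of read strand are not given in the sources used here. The table has 27032 rows, of which 1 names no gene and was dropped, and rows were added up for 609 symbols that occur more than once. FPKM are not counts, so no count model was fitted, and with 1 library per condition a gene was called when log2(FPKM + 0.1) differed by at least 1.5-fold, among the 11147 genes that averaged 1 FPKM or more. The calculation was tested on simulated data that held the sampling of fragments and no differences between cultures, so the test does not cover the latter.

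Depth was approximated from low values of genes with a single transcript of at least 1500 bases. Positions and transcript lengths came from GENCODE release 44 on GRCh37 and promoter windows from RefSeq on GRCh38.p14, in which 7 of the 10 genes matched by symbol. Members and lists were chosen with earlier results of these data known. Beside the 10 members and MYC, the genes named are the 3 of each list with the largest change in the MYC-inducible cells, every gene of lists of up to 5, and the 3 nearest in profile to MITF and PMEL, except 2 genes that are not reported here; POLR2F, CDK2, COL3A1, KRT5, KRT1, SOX9, KIT, AXL, EGFR, WNT5A, ZEB1, TEAD4, CYR61, MC1R, MFSD12 and CAPN3 were named after their values were seen. Alternatives were other pseudocounts, filters, scalings, thresholds and references. The work used matplotlib 3.10.9, pandas 2.3.3 and numpy 2.4.6 under Python 3.11.15.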

Additional observations from a re-analysis of the deposited data

Results flagged for a closer look

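In 3 of the 10 genes the change with Dox had opposite signs in the lines, and the difference was not tested because each condition has 1 library. The change in the MYC-inducible cells minus that in the vector cells was -0.47 for MITF, -0.88 for PMEL and -0.20 for GPR143. The vector changes were 0.05, 0.01 and 0.01, and those of PMEL and GPR143 became -0.01 under other scalings of the libraries, so for these genes the opposite sign rests on a vector value near 0.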

How the results depend on the processing

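No paired analysis was possible because there is 1 library per condition. Of 111 recalculated counts and medians of the 10 genes, 107 moved by at most 0.1 log2 units or 1.5 times and 4 moved further. At a 2-fold threshold 0 of the 10 genes fell with Dox in the MYC-inducible cells and 0 were lower than in the vector cells with Dox, since the largest change was -0.97. With the vector cells with Dox as the reference, 2 genes fell and the median was -0.27. Of 170 recalculated values of single genes 6 moved further, each under that reference, where DCT became 0.07 and SLC45A2 -0.04, both with a change of sign. The other scalings left 4 genes that fell and 0 that rose. Among all genes, 658 rose and 986 fell in the MYC-inducible cells, with 117 and 228 at 2-fold, 1138 and 1748 without the filter and 436 and 549 among genes averaging 5 FPKM or more. Scaling to the median ratio gave 809 and 845, and scaling to the same sum 525 and 1147, so that 48.9% and 31.4% of the calls were rises, against 40.0%. For other shifts the cause was not tested. Depth is approximate and limits TYRP1 most.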

Other observations

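MC1R, the melanocortin receptor that signals to MITF, was level, with 36.1 FPKM in the vector cells without Dox, 33.0 FPKM with Dox, 33.2 FPKM in the MYC-inducible cells without Dox and 33.4 FPKM with Dox. MFSD12, a transporter of cysteine into the melanosome, was among the more abundant melanosome genes, at 1193, 1249, 1129 and 866 FPKM in the same order. CAPN3, an MITF target, differed between the untreated lines, at 62.9 and 84.0 FPKM, and stayed at 86.6 FPKM with Dox in the MYC-inducible cells. These genes were chosen after their values were seen.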
